A study of Mus musculus with 8 samples.

Results

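The genes described here are the numbered zinc finger protein genes of the mouse, those with a symbol of Zfp followed by a number. Members were the protein-coding genes of this name selected on a mean level of at least 2 CPM over 8 RNA-seq libraries, where CPM is the count scaled by the library total. They numbered 291, of 394 protein-coding Zfp genes and 49315 gene identifiers. A search of the translated GENCODE M21 coding sequences found a KRAB A box in 173 members and none in the other 118. A KRAB box is a repressor domain.

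Libraries were made from edited OT-I CD8 T cells, killer T cells of a mouse whose transgenic receptor sees an ovalbumin peptide. CRISPR-Cas9 guides were delivered by nucleofection. Carm1 KO cells had a guide against Carm1, whose product methylates arginines of histones and coactivators, and Control KO cells had a guide against the bacterial gene LacZ (4 libraries each). Both arms started from naive cells, purified by negative selection out of spleen and inguinal nodes, and were cultured with the cytokines IL-7 (2.5 ng/ml) and IL-15 (50 ng/ml). RNA was taken 7 days after editing, and the labels call the 4 libraries of an arm technical replicates. The p-values therefore measure only the spread between these libraries, which may be technical. The series text speaks of co-culture with B16F10-Ova melanoma cells, whereas the protocols describe culture alone. The labels give no clone, animal number or age.

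Zinc finger proteins of the C2H2 type bind DNA through tandem fingers, each of which contacts a few bases. In the KRAB class, the KRAB box recruits the corepressor Trim28, which brings in the histone methyltransferase Setdb1, heterochromatin proteins and histone deacetylases, and many of these proteins silence transposable elements. Other Zfp genes encode unrelated proteins with a zinc finger, among them RNA-binding, ribosomal and spindle proteins.

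Totals were 37556330 to 39988442 counts in Carm1 KO libraries and 38768760 to 41439998 in Control KO libraries. From here on, CPM are on TMM-scaled library sizes. Tests are edgeR quasi-likelihood F tests over 14970 genes, with a Benjamini-Hochberg adjusted p under 0.05 as the threshold. Carm1 itself had 32.8, 33.2, 33.0 and 32.1 CPM in Carm1 KO libraries, against 94.4, 95.8, 96.8 and 96.2 CPM in Control KO libraries. T cell markers were present in both arms, with summed levels of 7360 to 7597 CPM in Carm1 KO and 5520 to 5661 CPM in Control KO libraries (8 of 11 higher, 3 lower). Levels of other markers also differed between the arms. Myeloid markers summed to 8.43 to 9.77 CPM in Carm1 KO and 134 to 140 CPM in Control KO libraries (9 of 9 tested lower, with C1qa at 0 in all Carm1 KO libraries). B cell markers summed to 930 to 957 CPM in Carm1 KO and 274 to 281 CPM in Control KO libraries (3 of 4 tested higher), most of it Ighm. Melanoma markers summed to 13.8 to 15.1 CPM in Carm1 KO and 4.05 to 4.31 CPM in Control KO libraries, with Tyr, Dct, Tyrp1 and Sox10 at 0 in all 8. Of this, Pmel averaged 12.7 CPM in Carm1 KO and 3.42 CPM in Control KO libraries, and Mitf 1.91 and 0.787 CPM. Mlana was at 0 in all Carm1 KO libraries and averaged 0.00678 CPM in Control KO libraries. The sums were 1.02 to 1.56 CPM in Carm1 KO and 3.31 to 3.90 CPM in Control KO libraries for NK cell markers, and 0.167 to 0.451 CPM in Carm1 KO and 4.76 to 5.29 CPM in Control KO libraries for erythroid markers. Their part in the Zfp results was not tested. In bulk RNA, fewer cells of a type and less RNA per cell cannot be told apart.

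Sequences upstream of KRAB genes are shown first, because a run of letters recurs in many of them. RefSeq promoters (GRCm38.p6, 250 bases before to 50 after the first base of the gene) were matched for 244 members. Some genes had more than 1. The 173 promoters of KRAB members belong to 152 genes, the 120 of other members to 92, and all 32851 to 27025. Of 42466 distinct 11-letter words in the promoters of KRAB members, counted on both strands, ACTACATTTCC was held by the most. It stood in 21 of 173 promoters of KRAB members (12.1%), in 2 of 120 promoters of other members (1.67%) and in 176 of all 32851 promoters (0.536%). The 4 promoters printed here were chosen because they hold it: they belong to the 2 KRAB members with the largest rises and the 2 with the largest falls among called holders. Capitals mark the word or its reverse complement, and base 251 is the first of the gene.
Zfp85, chr13:67755153-67755452, minus strand: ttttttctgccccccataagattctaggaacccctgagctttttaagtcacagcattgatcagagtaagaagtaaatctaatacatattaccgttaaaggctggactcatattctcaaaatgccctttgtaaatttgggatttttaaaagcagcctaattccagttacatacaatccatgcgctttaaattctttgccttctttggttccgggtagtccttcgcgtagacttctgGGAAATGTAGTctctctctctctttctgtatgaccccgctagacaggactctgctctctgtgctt
Zfp273, chr13:67813566-67813865, plus strand: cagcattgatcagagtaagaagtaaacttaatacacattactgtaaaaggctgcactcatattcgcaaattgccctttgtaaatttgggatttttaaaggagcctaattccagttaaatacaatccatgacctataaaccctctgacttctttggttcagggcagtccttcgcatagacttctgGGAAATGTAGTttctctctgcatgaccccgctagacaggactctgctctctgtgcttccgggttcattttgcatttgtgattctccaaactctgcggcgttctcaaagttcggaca
Zfp84, chr7:29768302-29768601, plus strand: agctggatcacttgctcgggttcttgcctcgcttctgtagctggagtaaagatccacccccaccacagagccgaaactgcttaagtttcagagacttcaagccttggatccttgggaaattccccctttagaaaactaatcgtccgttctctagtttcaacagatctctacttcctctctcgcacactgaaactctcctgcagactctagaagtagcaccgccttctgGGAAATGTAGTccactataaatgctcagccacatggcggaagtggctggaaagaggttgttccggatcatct
Zfp566, chr7:30090461-30090760, minus strand: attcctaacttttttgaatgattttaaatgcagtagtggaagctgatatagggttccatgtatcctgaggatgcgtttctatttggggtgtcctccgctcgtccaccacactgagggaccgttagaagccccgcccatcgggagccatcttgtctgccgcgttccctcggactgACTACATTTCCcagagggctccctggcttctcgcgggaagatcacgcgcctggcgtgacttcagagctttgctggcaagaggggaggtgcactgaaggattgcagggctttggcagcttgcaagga

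Zfp85 and Zfp273 lie in 1 tandem group on chromosome 13, and Zfp84 and Zfp566 in 1 on chromosome 7. Genes of such a group arose by duplication, so their promoters are not independent. The word was found 24 times in 23 members, of which 8 are in the chromosome 13 group and 12 on chromosome 7, and 20 of the 24 lay within the 100 bases before the start (median position -50.5). Holders went both ways: 16 were higher, 3 lower and 4 not called in Carm1 KO libraries, with log2 fold changes of -0.47 for Zfp84 to 1.15 for Zfp85. The word stood in 14 of 123 promoters of KRAB members called higher (11.4%) and in 3 of 31 promoters of those called lower (9.68%). The 123 promoters belong to 105 genes and the 31 to 28.

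The word was picked for its count, so its share is a description of these promoters. Before it was settled on, 19 words were searched on both strands, 17 at first and 2 longer forms added once the first shares were known, and all 9-letter and 11-letter words of the KRAB promoters were scanned. Which promoters to print was changed after earlier choices held few matches. Among 33618 words of 9 letters the commonest was CTGATTGGC, which contains the reverse complement of the CCAAT box, in 23 of 173 promoters of KRAB members (13.3%) and 2.16% of all. TGAGTGACA stood in 22 (12.7%) and 0.740% of all, and so did TACATTTCC, a part of the printed word (12.7% and 0.861%). The core of the element bound by the factor ZNF143, which begins with the same 6 letters as the printed word, stood in 5 promoters of KRAB members (2.89%) and 0.286% of all. With any letter allowed at the seventh place, which takes in the printed word, it stood in 32 (18.5%) and 1.02% of all, and in 4.17% of those of other members.

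Shares of known promoter words were counted in the same way and not tested. The ETS core CCGGAAG stood in 24.3% of promoters of KRAB members, 16.7% of those of other members and 8.86% of all, and CCAAT in 54.3%, 37.5% and 37.4%. The GC box GGGGCGGGG stood in 5.78% of KRAB promoters, 21.7% of the others and 11.4% of all. The TATA word TATAAA stood in 5.20%, 8.33% and 13.6%. TGACG stood in 36.4% of KRAB promoters, 33.3% of the others and 20.8% of all, and TGACGTCA, which contains it, in 5.78%, 2.50% and 1.79%. The other words searched were the YY1 word AAGATGGCG, the E box CACGTG, the AP-1 word TGACTCA, the E2F word TTTGGCGC, the start ACTACAA of the ZNF143 core, and words for NRF1, NF-kappaB, RFX and a CG-rich palindrome. They stood in 0 to 6.94% of KRAB promoters. The median number of CG pairs was 11 in promoters of KRAB members, 22 in those of other members and 7 in all.

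Zfp143, which encodes the mouse ZNF143, is itself a member. Its level was 28.0, 31.4, 30.4 and 29.1 CPM in Carm1 KO libraries, against 30.3, 28.6, 29.3 and 30.1 CPM in Control KO libraries. These ranges overlapped, and Zfp143 was not called (log2 fold change 0.01 ± 0.04 SE, adjusted p = 0.882).

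The Zfp genes took a larger share of the RNA in Carm1 KO cells. All 394 protein-coding Zfp genes together took 0.838%, 0.866%, 0.865% and 0.850% of the counts in Carm1 KO libraries, against 0.664%, 0.648%, 0.654% and 0.654% in Control KO libraries. The arms did not overlap, and the difference of 0.200 percentage points had p = 0.0286 in an exact two-sided permutation test over libraries, the smallest p that 4 against 4 can give. Genes with a KRAB box took 0.300% ± 0.00488 in Carm1 KO and 0.211% ± 0.00335 in Control KO libraries, and those without took 0.555% ± 0.00943 in Carm1 KO and 0.444% ± 0.00402 in Control KO libraries (SD, n = 4 each, exact permutation p = 0.0286 each and 0.0286 adjusted over the 3 shares). Shares are of library totals, and on that scaling the median log2 fold change was 0.41 for the members and 0.18 for all genes tested, with 0.06 for protein-coding genes with a mean of at least 2 CPM. A single gene, Zfp36l2, took 0.0533% ± 0.00241 in Carm1 KO and 0.0158% ± 0.000442 in Control KO libraries. Without it, a comparison added after its values were seen, the other 393 genes took 0.801% ± 0.0132 in Carm1 KO and 0.639% ± 0.00690 in Control KO libraries, a difference of 0.162 percentage points. Those without a KRAB box then took 0.501% ± 0.00899 in Carm1 KO and 0.428% ± 0.00414 in Control KO libraries, a difference of 0.0735 in place of 0.111 (SD, n = 4 each, exact permutation p = 0.0286 for both).

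Gene by gene, 179 of 291 members were higher, 75 lower and 37 not called in Carm1 KO libraries. Most genes of the series were called: 87.7% of the 14970 tested, 44.5% higher and 43.2% lower, and 92.3% of 10272 protein-coding genes with a mean of at least 2 CPM, 41.6% higher and 50.7% lower. The members' median log2 fold change was 0.25, against 0.02 for all genes tested and -0.10 for those protein-coding genes. Of the members, 50 rose (17.2%) and 5 fell (1.72%) by at least 2-fold, where 13.7% of the protein-coding genes of at least 2 CPM rose and 14.7% fell by that much, and 20.5% and 15.2% of all genes tested. Among the 278 members with a mean of at least 2 CPM in each arm, 40 rose and 4 fell by at least 2-fold. The libraries of the arms did not overlap for 238 members, as for 83.4% of all genes tested and 89.2% of the protein-coding genes of at least 2 CPM.

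Members with a KRAB box account for most of the rises. Of the 173, 121 were higher, 32 lower and 20 not called, with a median log2 fold change of 0.39. Of the 118 others, 58 were higher, 43 lower and 17 not called, with a median of 0.05. At least 2-fold, 34 KRAB members rose and 2 fell, and 16 other members rose and 3 fell. Some of these reached the floor only through the arm where they are high. Of 164 KRAB members with a mean of at least 2 CPM in each arm, 112 were higher and 32 lower, and 26 rose and 2 fell at least 2-fold. Of 114 such others, 55 were higher and 42 lower, and 14 rose and 2 fell at least 2-fold. The split of calls depends on the scaling of libraries: 70.5% of called members were higher with TMM factors, 85.6% with upper-quartile factors and 81.5% with library totals alone. For KRAB members these were 79.1%, 91.4% and 88.2%, and for the others 57.4%, 76.8% and 71.6%. Upper-quartile factors moved the median of all genes by 0.215 and library totals by 0.160 on the log2 scale. Such factors move all genes by nearly the same amount, so a median relative to all genes cannot depend on them. It was 0.37 for KRAB members and 0.03 for the others under each, which is no check of the scaling.

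**Figure D1:**
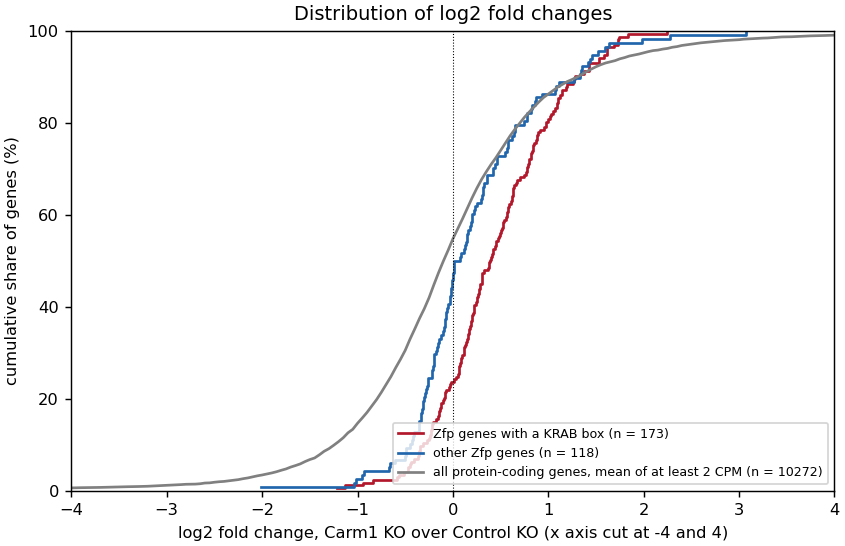
Cumulative share of genes (y axis, percent) by log2 fold change of Carm1 KO over Control KO (x axis), for 173 Zfp genes with a KRAB box, 118 other Zfp genes and 10272 protein-coding genes with a mean of at least 2 CPM. The KRAB curve lies to the right of the others over its middle, with a median of 0.39 against 0.05 and -0.10.

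KRAB genes were the lower expressed class. Their median level per kilobase of exon was 2.51 CPM in Carm1 KO and 2.06 CPM in Control KO libraries, against 5.82 CPM in Carm1 KO and 5.59 CPM in Control KO libraries for the other members. The median number of C2H2 fingers, counted by a letter pattern, was 12 in KRAB members and 7 in the others. By finger number, members with 11 to 15 fingers had a median log2 fold change of 0.41 (61 of 86 higher, 15 lower) and those with 0 or 1 finger a median of -0.15 (7 of 17 higher, 9 lower). Members with 2 to 5, 6 to 10 and at least 16 fingers had medians of 0.17, 0.24 and 0.20. These bins, and the families named next, were chosen after the values were seen and were not tested against each other. Among other C2H2 families at the same floor, 12 of 18 Zscan and Zkscan genes were higher and 3 lower (median 0.61), and 19 of 36 Zbtb genes were higher and 12 lower (median 0.14). Zc3h genes, whose fingers are of the CCCH type, had 7 of 17 higher and 9 lower (median -0.08).

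**Figure D2:**
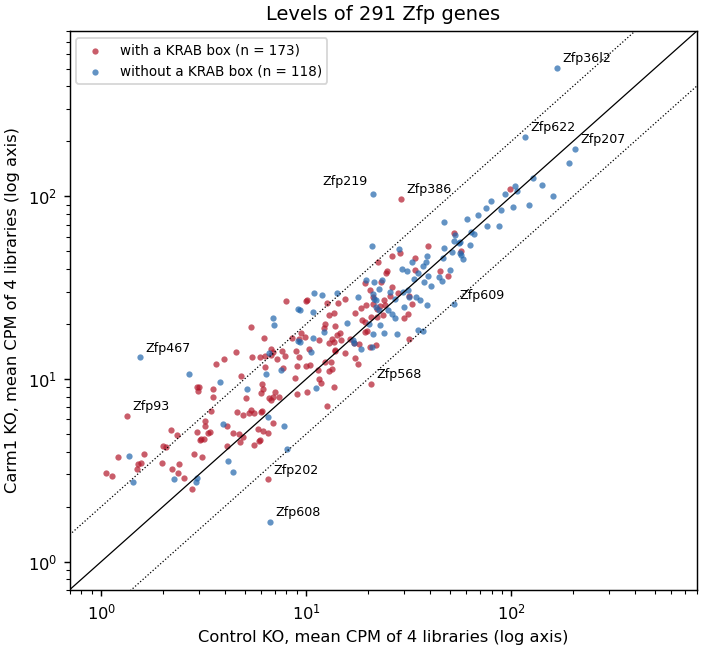
Mean CPM of 4 Carm1 KO libraries (y axis, log) against mean CPM of 4 Control KO libraries (x axis, log) for 291 Zfp genes, coloured by the presence of a KRAB box, with equality as a solid line and 2-fold differences as dotted lines. Points above the upper dotted line outnumber those under the lower, where Zfp608 and Zfp202 lie.

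Many Zfp genes sit in tandem groups. Neighbouring members no more than 500 kb apart, in groups of at least 5, made 13 groups, a rule set after the values were seen. A group of 19 lay on chromosome 17, at chr17:21008941-23564226 (mm10). Of its 19 members, all with a KRAB box, 18 were higher and 1 lower in Carm1 KO libraries, with a median log2 fold change of 0.75. No other protein-coding gene of at least 2 CPM was tested in that span. Its largest rise was Zfp40, with 11.1, 12.8, 12.1 and 12.3 CPM in Carm1 KO libraries, against 3.47, 3.91, 3.69 and 3.44 CPM in Control KO libraries. Every Carm1 KO library lay above every Control KO library, and the log2 fold change was 1.73 ± 0.07 SE (adjusted p = 1.06e-24). In the same group, though not next to Zfp40, Zfp760 had 16.4, 16.6, 17.6 and 16.6 CPM in Carm1 KO libraries, against 6.66, 6.44, 6.27 and 5.59 CPM in Control KO libraries (log2 fold change 1.43 ± 0.06 SE). The single fall was Zfp213, at one edge of the group, which shares 47.5% of its 100-base words with other genes and was not called lower with upper-quartile factors. Of the 19 promoters matched for 17 genes of this group, 0 hold the word ACTACATTTCC.

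**Figure D3:**
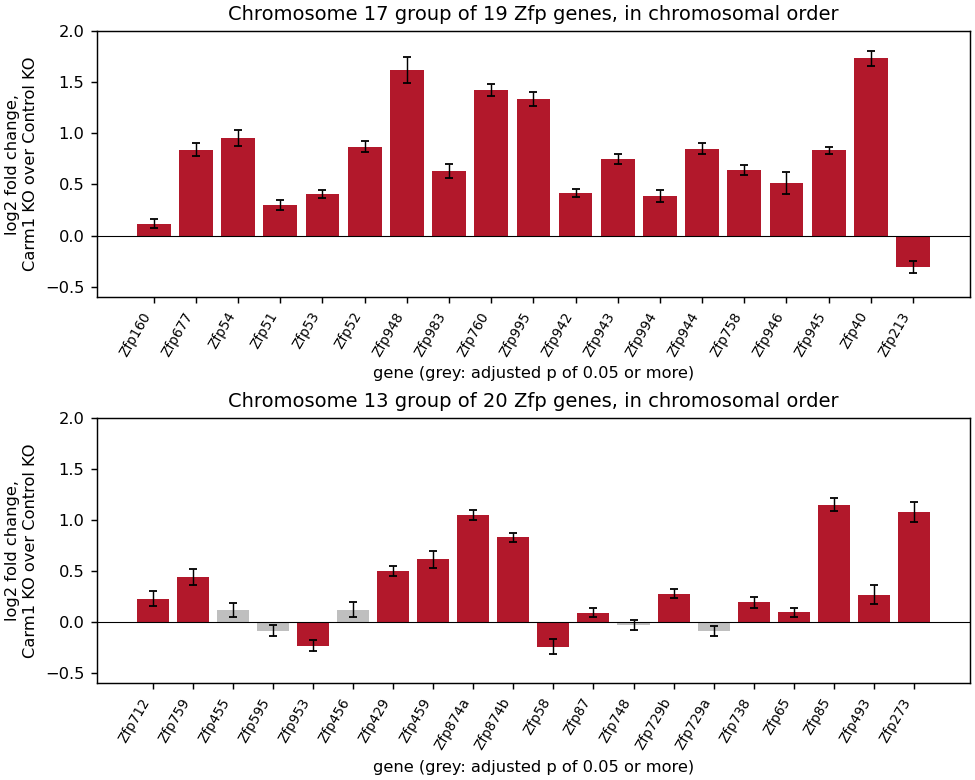
Log2 fold change of Carm1 KO over Control KO, with its standard error, for the 19 members of the chromosome 17 group and the 20 of the chromosome 13 group, in chromosomal order. In the chromosome 17 group 18 bars are above 0, and in the chromosome 13 group 13 called bars are above 0 and 2 below.

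The largest group, at chr13:67038594-67827002, held 20 KRAB genes, of which 13 were higher, 2 lower and 5 not called (median 0.21). Of its members, 8 hold that promoter word. Reads from this group are harder to assign, since 11 of the 20 share over 5% of their 100-base words with other genes. A group of 13 at chr7:29768552-30169750 was divided, with 5 higher, 4 lower and 4 not called (median 0.03), and includes Zfp568, one of the larger falls. A group of 6 at chr7:6131491-6396915 had 6 higher (median 1.05). KRAB members inside groups had 67 of 101 higher and 21 lower (median 0.27), and those outside had 54 of 72 higher and 11 lower (median 0.53). Over 5% of 100-base words were shared with other genes in 65 of the 291 members. Of 128 KRAB members under that limit, 93 were higher and 23 lower (median 0.42).

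The largest rise among members was Zfp467, on chromosome 6 at 48427697 to 48445825, a factor known from the choice between fat and bone in mesenchymal progenitors. It had 13.3, 12.6, 13.5 and 13.1 CPM in Carm1 KO libraries, against 1.80, 1.41, 1.65 and 1.34 CPM in Control KO libraries. The arms lay far apart, and the log2 fold change was 3.08 ± 0.08 SE (adjusted p = 3.70e-31). Its Control KO mean is under 2 CPM, so it is a member only through its Carm1 KO level. Of the 278 members at the floor in each arm, the largest rise was that of Zfp219. This gene, known as a partner of Sox9 in cartilage, had 102, 100, 106 and 104 CPM in Carm1 KO libraries, against 21.6, 23.1, 20.4 and 19.8 CPM in Control KO libraries (log2 fold change 2.28 ± 0.03 SE, adjusted p = 4.88e-38). Neither gene encodes a KRAB box. Of the KRAB members, Zfp93 rose most, though it too is a member only through its Carm1 KO level, with 6.29, 6.01, 6.32 and 6.59 CPM in Carm1 KO libraries and 1.09, 1.25, 1.57 and 1.42 CPM in Control KO libraries (2.24 ± 0.10 SE on the log2 scale, adjusted p = 8.62e-23). Zfp386 had the highest level among the KRAB members with large rises, at 94.6, 97.4, 95.4 and 99.8 CPM in Carm1 KO libraries and 29.6, 30.0, 26.9 and 29.0 CPM in Control KO libraries (1.75 ± 0.03 SE). The arms were separate for all of these, as for Zfp821, Zfp61 and Zfp949, which rose by 1.99, 1.84 and 1.73 on the log2 scale. The rise of Zfp61 was the largest of the KRAB members at the floor in each arm.

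The largest fall was in Zfp608, on chromosome 18 at 54888045 to 54990180, known to repress the recombination genes Rag1 and Rag2 in thymocytes. It had 1.29, 1.63, 1.80 and 1.88 CPM in Carm1 KO libraries, against 6.69, 7.31, 6.08 and 6.63 CPM in Control KO libraries. All Carm1 KO libraries lay below all Control KO libraries, with a log2 fold change of -2.02 ± 0.10 SE (adjusted p = 1.34e-21). Its Carm1 KO mean is under 2 CPM, so it is a member only through its Control KO level. Of the members at the floor in each arm, Zfp202 fell most. The Zfp608 paralogue Zfp609 had 23.9, 26.6, 27.2 and 25.1 CPM in Carm1 KO libraries, against 52.7, 52.4, 53.0 and 52.7 CPM in Control KO libraries (log2 fold change -1.04 ± 0.04 SE, adjusted p = 2.49e-27). Both paralogues were thus lower with no overlap. Among KRAB members the largest falls were Zfp202, at 2.68, 2.83, 3.0 and 2.76 CPM in Carm1 KO and 7.09, 6.69, 6.24 and 6.08 CPM in Control KO libraries (-1.21 ± 0.08 SE), and Zfp568, which silences a placental transcript of Igf2. Zfp568 had 9.47, 9.49, 9.29 and 9.47 CPM in Carm1 KO libraries and 22.7, 20.1, 19.3 and 20.4 CPM in Control KO libraries (-1.13 ± 0.05 SE). After Zfp609, Zfp367, Zfp593, Zfp1, Zfp407 and Zfp719 followed, at -1.01, -0.95, -0.94, -0.93 and -0.84, with no overlap between arms.

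Of 33 Zfp genes listed for a well known role, 30 were members, with 11 higher and 14 lower. Of the protein-coding genes with a mean of at least 2 CPM, 41.6% were higher and 50.7% lower. The split of the list was not tested against this share. The mRNA decay factors, which bind AU-rich elements and restrain cytokine transcripts in T cells, did not move as one. Zfp36l2, the most abundant member per kilobase, had 526, 515, 501 and 474 CPM in Carm1 KO libraries, against 161, 169, 165 and 173 CPM in Control KO libraries (log2 fold change 1.59 ± 0.03 SE, adjusted p = 3.49e-28). The arms were separate by a wide margin. Zfp36 averaged 79.0 ± 1.73 CPM in Carm1 KO and 68.8 ± 2.83 CPM in Control KO libraries (SD, n = 4 each), 0.20 higher on the log2 scale. Zfp36l1 averaged 68.7 ± 1.46 CPM in Carm1 KO and 76.3 ± 1.84 CPM in Control KO libraries, lower by a log2 fold change of -0.15 that was 0.0086 with library totals and 0.063 with upper-quartile factors. It shares 47.6% of its 100-base words with other genes.

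Of the ribosome genes, Zfp622, a maturation factor of the large subunit, was higher, with 224, 215, 207 and 202 CPM in Carm1 KO libraries and 112, 119, 115 and 121 CPM in Control KO libraries (log2 fold change 0.86 ± 0.03 SE, adjusted p = 7.24e-23). Zfp593, whose yeast relative Bud20 also acts on the large subunit, was lower, at 3.99, 4.16, 4.25 and 4.23 CPM in Carm1 KO and 7.67, 7.99, 8.19 and 8.27 CPM in Control KO libraries (-0.95 ± 0.07 SE). Zfp598, the ubiquitin ligase that marks collided ribosomes, was lower by a log2 fold change of -0.34. Both arms were separate for these genes, though over 50% of the 100-base words of Zfp593 are shared with other genes. The mitosis and splicing genes were lower: Zfp207, a spindle protein, by -0.17, Zfp830 by -0.22 and Zfp326, a splicing factor, by -0.49. With upper-quartile factors Zfp207 was at 0.042 and Zfp830 was not called, and with library totals neither was called.

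Genes for imprint and retroelement silencing were divided. Zfp809, which silences murine leukaemia virus in embryonic cells, had 22.9, 20.6, 22.2 and 20.6 CPM in Carm1 KO libraries, against 30.1, 29.8, 30.0 and 29.6 CPM in Control KO libraries (log2 fold change -0.47 ± 0.04 SE, adjusted p = 1.03e-13). Zfp932, which binds endogenous retroviruses, had 21.7, 20.9, 23.0 and 23.6 CPM in Carm1 KO libraries, against 12.9, 13.8, 12.7 and 12 CPM in Control KO libraries (0.80 ± 0.05 SE, adjusted p = 3.60e-18). The first was lower and the second higher, each without overlap. Zfp445, which maintains imprints, was higher by 0.16, while Zfp57 and Zfp708 lay under the floor in both arms, at means of 0.0677 and 0.154 CPM in Carm1 KO and 0.0404 and 0.233 CPM in Control KO libraries.

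Among the nuclear regulators on the role list, Zfp827 had the largest change, with 21.2, 24.0, 25.2 and 22.3 CPM in Carm1 KO libraries and 10.4, 10.1, 10.9 and 11.7 CPM in Control KO libraries (log2 fold change 1.11 ± 0.05 SE, adjusted p = 2.47e-20). In human cells its product brings the NuRD complex to telomeres. Zfp592 and Zfp687, partners in the Z3 complex, were higher by 0.25 and 0.32, and the third partner Zfp532 was at 0 in all Carm1 KO and 3 of 4 Control KO libraries. Of the paralogues Zfp148 and Zfp281, which bind GC-rich promoters, Zfp281 was lower by -0.45, and Zfp148 by -0.09 with TMM factors but at 0.070 with library totals and 0.12 with upper-quartile factors. Zfp410, an activator of Chd4, was at -0.17 and Zfp523 at -0.12, each with the sign turned under upper-quartile factors (0.044 and 0.091). The arms overlapped for Zfp523, and without Control KO library 1 it was not called (log2 fold change -0.10, adjusted p = 0.0653). Zfp318, which acts on IgM and IgD splicing in B cells, and Zfp335, required for T cell maturation, were higher by 0.36 and 0.12. Zfp106, Zfp292 and Zfp638 were lower by -0.34, -0.30 and -0.21, Zfp638 being at 0.0091 with upper-quartile factors and not called with library totals. Zfp106 shares 23.2% of its 100-base words with other genes. Zfp91, Zfp131, Zfp451 and Zfp217 were not called, with log2 fold changes of -0.02, -0.05, -0.03 and 0.01, and Zfp644 was higher by 0.16. A pair of T cell genes named after their values were seen, Zfp683 (Hobit) and Zfp831, averaged 2.82 and 33.8 CPM in Carm1 KO and 2.25 and 21.5 CPM in Control KO libraries, with log2 fold changes of 0.33 ± 0.11 and 0.65 ± 0.04 SE (adjusted p = 0.00604 and 1.62e-18).

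**Figure D4:**
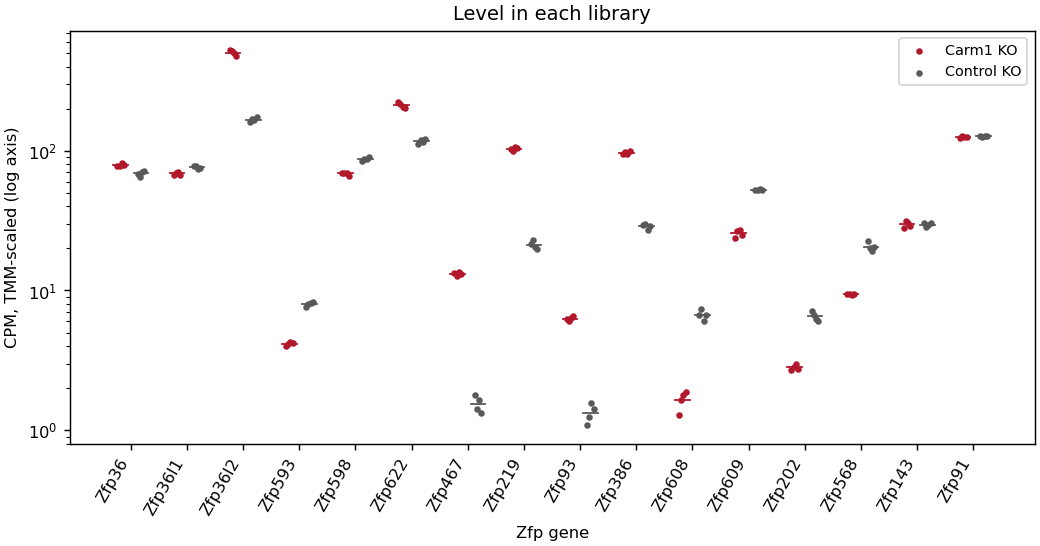
CPM on TMM-scaled library sizes (y axis, log) of 16 Zfp genes in each library, Carm1 KO left of Control KO, with a line at the mean of 4. The arms are apart for 14 of the genes and overlap for Zfp143 and Zfp91.

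The most abundant members per kilobase were Zfp36l2, Zfp622, Zfp706, Zfp207 and Zfp36l1, at 143, 75.7, 22.8, 27.3 and 23.0 CPM per kilobase in Carm1 KO and 47.4, 41.6, 36.1, 30.8 and 25.6 CPM per kilobase in Control KO libraries. Zfp706 was lower, with 105, 99.1, 97.9 and 100 CPM in Carm1 KO libraries and 157, 159, 162 and 160 CPM in Control KO libraries (log2 fold change -0.66 ± 0.02 SE, adjusted p = 5.28e-26).

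The corepressor machinery that KRAB proteins use was mostly lower in Carm1 KO libraries. The list held 21 symbols for 20 genes, since Tasor is a newer name of Fam208a. All 20 were found, with 16 lower, 2 higher and 2 not called, and a median log2 fold change of -0.58. Of all genes tested 43.2% were lower and 44.5% higher, with a median of 0.02, and of the protein-coding genes of at least 2 CPM 50.7% were lower and 41.6% higher, with a median of -0.10. With library totals, and also with upper-quartile factors, 5 of the 20 were higher. Trim28, which binds the KRAB box, had 304, 291, 288 and 279 CPM in Carm1 KO libraries, against 436, 449, 441 and 451 CPM in Control KO libraries (log2 fold change -0.61 ± 0.02 SE, adjusted p = 1.52e-25). All Carm1 KO libraries lay below all Control KO libraries. Setdb1 averaged 54.9 ± 0.94 CPM in Carm1 KO and 80.9 ± 1.89 CPM in Control KO libraries (SD, n = 4 each), lower by a log2 fold change of -0.56. The largest falls were in Uhrf1 and Dnmt1, which copy DNA methylation after replication, at -2.94 and -1.53, followed by Cbx5 (-1.28), a heterochromatin protein, and Hdac2 (-1.12). The rises were in Atf7ip, a partner of Setdb1, at 0.96, and the remodeller Chd3, at 0.58. Chd4 was lower by -0.06 with TMM factors, but at 0.10 with library totals and 0.15 with upper-quartile factors.

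**Figure D5:**
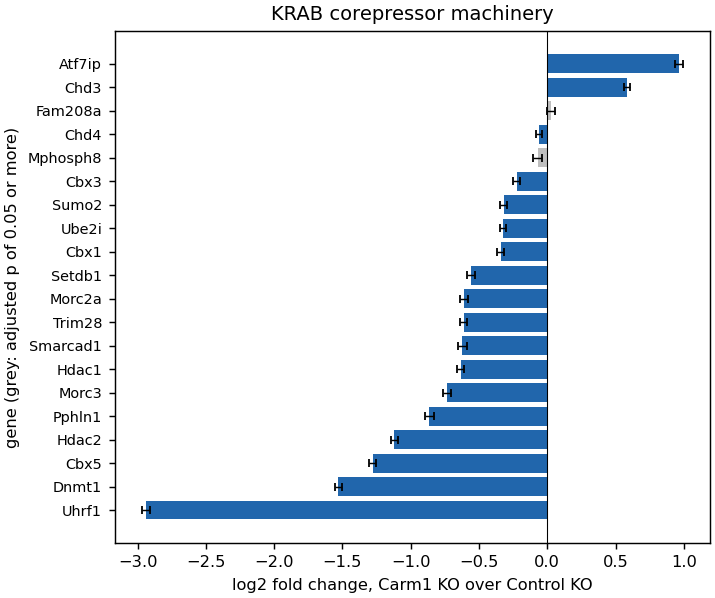
Log2 fold change of Carm1 KO over Control KO with its standard error for 20 genes of the KRAB corepressor machinery, sorted. Uhrf1 is the lowest at -2.94 and Atf7ip the highest at 0.96, and the grey bars, Fam208a and Mphosph8, were not called.

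The floor on the mean bears on which genes are members. Of the 291, 278 had a mean of at least 2 CPM in each arm, and of these 167 were higher and 74 lower, while 12, among them Zfp467 and Zfp93, reached it only through Carm1 KO and 1, Zfp608, only through Control KO libraries. Just inside the floor, Zfp970, Zfp473 and Zfp518b averaged 2.93, 3.05 and 2.72 CPM in Carm1 KO and 1.13, 1.06 and 1.43 CPM in Control KO libraries. Just outside it, Zfp575, Zfp30 and Zfp174 averaged 3.41, 3.21 and 2.62 CPM in Carm1 KO and 0.183, 0.119 and 0.714 CPM in Control KO libraries. Of the 103 Zfp genes under the floor, 15 had no count in any library and 42 were tested, of which 24 were higher, 6 lower and 12 not called.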

How the data were processed

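Polyadenylated RNA of 4 Carm1 KO and 4 Control KO libraries was sequenced with paired 150 bp reads and a kit that does not mark strand, so overlapping antisense reads cannot be told apart. The authors deposited whole-number counts per Ensembl gene, made with RSEM on mm10 per the labels and the submitters' processing notes; aligner, annotation and versions: not given in the sources used here. Similar genes may share reads, which may have been split or dropped. Symbols came from GENCODE M21.

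The members, lists and tests were chosen with earlier results of these data known. Genes kept by filterByExpr (14970) were tested with TMM factors (1.05 to 1.07 in Carm1 KO, 0.938 to 0.953 in Control KO) in edgeR 4.0.16 (R 4.3.3), robust and two-sided, with Benjamini-Hochberg adjustment. A log2 fold change is Carm1 KO over Control KO. On simulated counts for 13906 genes the step recovered 68%, 84%, 90% and 86% of genes changed 1.25-, 1.5-, 2- and 4-fold (50 each) and called 7 of 13723 unchanged genes. Few genes were changed there, evenly up and down, whereas 87.7% of genes were called in the data. The simulation therefore cannot give the rate of false calls in the data.

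KRAB boxes were to be read from RefSeq proteins, which were not used here; GENCODE translations were searched instead. A first letter pattern (140 members) left out genes known to encode the box, so an HMMER 3.4 profile built from 127 boxes (E value at most 0.001) took its place before any fit was run. A stricter pattern found 93. Promoter words, the promoters printed (after earlier sets with few matches), gene groups, finger bins and the 100-base limit were chosen after the values were seen. In 227 of 293 member promoters the last 50 bases stood in a transcript of the gene as written, and in 0 as the reverse complement.

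Genes were named by rule: listed roles, the 8 largest rises and 8 largest falls with no overlap among members not on the role list, the 5 most abundant per kilobase, 3 on each side of the floor, the corepressor list and Carm1. Chi-square per degree of freedom was 1.45 to 13.5 between libraries of an arm, so none was counted as a copy. Shares were tested with scipy 1.17.1. Alternatives were RLE, upper-quartile and no factors, other filters and floors, DESeq2 1.42.0, limma-voom (limma 3.58.1), a 1.5-fold test, the replicate block, other KRAB patterns and each library left out. At these depths 3 counts are 0.0724 to 0.0799 CPM. With 4 libraries an arm the exact test cannot go below 0.0286.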

Additional observations from a re-analysis of the deposited data

Results flagged for a closer look

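Among 148 arm-and-gene groups of 4 libraries, 5 held a library whose gap to the others was above Dixon's limit; chance alone marks about 1 in 20. Zfp598 had 66.3 CPM in Carm1 KO library 4, where the others had 69.6 to 69.8 CPM. Zfp568 had 9.29 CPM in Carm1 KO library 3, where the others had 9.47 to 9.49 CPM. In Control KO libraries, Zfp106 had 197 CPM in library 4 (others 190 to 191 CPM), Zfp638 had 97.8 CPM in library 2 (others 102 to 103 CPM) and Zfp61 had 5.79 CPM in library 2 (others 5.18 to 5.27 CPM).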

How the results depend on the processing

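Same-numbered libraries of the arms did not deviate together (correlations of -0.0848 to -0.0509), so the numbers do not pair them; with the replicate block 176 members were higher and 75 lower, and the call of each of 74 named genes stayed as it was. Of 1252 combinations of a named gene and an alternative, 1152 kept direction and side of the threshold. A test against a 1.5-fold change gave 84 members higher and 11 lower (KRAB 58 and 4, others 26 and 7), 1 and 7 corepressor genes, and 10 and 0 in the chromosome 17 group. Library totals gave 47 members lower (KRAB 18), 2 at least 2-fold lower, and 5 corepressor genes higher. Upper-quartile factors gave 36 members lower (KRAB 13, others 23), 1 at least 2-fold lower, 5 corepressor genes higher, and 0 lower in the chromosome 17 group. A filter of at least 5 CPM in 4 libraries gave 3 at least 2-fold lower. The stricter KRAB pattern gave 63 KRAB members higher and 19 lower, and 116 others higher. The letter pattern tried first (140 members, fewer than the profile) gave 97 and 25, with 82 and 50 of the others. Its use as an alternative was chosen after seeing the data. Alternatives for the 2-fold counts, the chromosome 17 group and the share of counts were also chosen after seeing the data. Leaving out each library gave differences in the share of library counts in Zfp genes of 0.196 to 0.205 percentage points, with exact p = 0.0571, the smallest that 3 against 4 can give.

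Signs turned for genes of small change. Library totals moved the median of all genes by 0.160 and upper-quartile factors by 0.215 on the log2 scale. Each moved all genes by nearly the same amount. For the other alternatives the cause was not tested. With library totals the log2 fold changes were Zfp36l1 0.0086, Zfp523 0.036, Zfp148 0.070, Zfp91 0.14, Zfp131 0.11, Zfp451 0.13, Chd4 0.10 and Mphosph8 0.089. With upper-quartile factors they were Zfp36l1 0.063, Zfp207 0.042, Zfp523 0.091, Zfp410 0.044, Zfp148 0.12, Zfp91 0.20, Zfp131 0.16, Zfp451 0.19, Zfp638 0.0091, Chd4 0.15 and Mphosph8 0.14. With the 5 CPM filter they were Zfp148 0.0023, Zfp91 0.075, Zfp131 0.041, Zfp451 0.066, Chd4 0.033 and Mphosph8 0.022. Zfp143 and Zfp217 were at -0.0088 and -0.0085 with DESeq2, -0.0089 and -0.0085 with RLE factors, and -0.019 and -0.019 with no filter. With 1 library left out, Zfp143 ranged from -0.019 to 0.031, Zfp217 from -0.024 to 0.031, Zfp451 from -0.048 to 0.0048 and Fam208a from -0.0016 to 0.041.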
